A study of Mus musculus with 20 samples.

Results

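Semaphorins, ephrins, Slits and netrins are guidance cues that were first known from growing axons, and plexins, neuropilins, Eph receptors, Robos and Unc5 receptors are the proteins that read them. The genes described here are all 67 measured members of these families, chosen by symbol alone (Sema, Plxn, Epha, Ephb, Efna, Efnb, Slit, Robo, Ntn, Nrp and Unc5 genes), out of 19937 genes on the array. They comprised 20 semaphorins, 9 plexins, 13 Eph receptors, 8 ephrins, 3 Slits, 4 Robos, 4 netrins, 2 neuropilins and 4 Unc5 receptors. The symbols that fit the rule numbered 68 in RefSeq, and the last of them, Ephb2, was not paired with a single-symbol probe set and was not analysed here.

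Sorted mammary epithelial cells of mixed FVB/CD-1 mice were profiled on 20 Affymetrix mouse gene arrays. All mice carried K8-creERT2, a tamoxifen-inducible Cre driven by keratin 8, a keratin of luminal cells, and all groups are described 4 weeks after tamoxifen. The mutants also carried a transgene for PIK3CA H1047R, an activated catalytic subunit of PI3K that Cre turns on, and GFP marked the cells that expressed it. CD45-negative cells with low CD24 and no Sca1 made up the basal gate. Those with high CD24 made up 2 luminal gates, without and with Sca1. Controls (K8-creERT2 alone) gave GFP-negative cells of all 3 gates. Mutants (K8-creERT2/PIK3CA H1047R) gave GFP-positive cells of all 3 gates and GFP-negative cells of the basal gate. There were thus 7 groups with 3 arrays each, except that mutant Sca1-positive luminal cells had 2 (replicates 1 and 3). Each sorting used the pooled glands of 2 to 3 mice of a genotype, brought to the same stage of the estrus cycle. Mutant luminal cells were GFP-positive and control luminal cells GFP-negative, and the same held for GFP-positive basal against control basal cells. In each such comparison the mutation and the choice of cells in which Cre had been active cannot be told apart.

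In the mammary gland, basal (myoepithelial) cells form the outer layer of the duct and contract, while luminal cells line it and include hormone-sensing cells and progenitors. Several guidance families are known to act between these layers as they do between axons and their targets. Slits bind Robos, netrins bind Dcc, neogenin and Unc5 receptors, and class 3 semaphorins bind neuropilins that signal through plexin A receptors. Classes 4 to 7 of the semaphorins are held at the membrane and bind plexins directly, and ephrins and Eph receptors signal in both directions where cells touch.

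Promoter sequences are shown for the 4 genes that passed the test in GFP-positive basal cells against both other basal groups, namely Plxna2, Sema3e and Sema4g (higher) and Sema3c (lower). Each runs 5′ to 3′ from 250 bases before to 50 bases after a gene start, from RefSeq on GRCm38.p6. Capitals mark the GC box GGGCGG or its reverse complement CCGCCC, the sequence that Sp-family factors are known to bind. The windows lie on the plus strand at chr1:194619579-194619878 for Plxna2, chr5:14025026-14025325 for Sema3e, chr19:44989094-44989393 for Sema4g and chr5:17574566-17574865 for Sema3c.
Plxna2: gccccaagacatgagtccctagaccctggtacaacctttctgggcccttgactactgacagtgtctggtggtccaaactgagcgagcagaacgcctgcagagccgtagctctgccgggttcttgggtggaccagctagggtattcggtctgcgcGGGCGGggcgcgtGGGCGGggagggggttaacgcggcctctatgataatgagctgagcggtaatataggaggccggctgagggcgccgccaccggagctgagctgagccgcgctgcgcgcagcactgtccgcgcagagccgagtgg
Sema3e: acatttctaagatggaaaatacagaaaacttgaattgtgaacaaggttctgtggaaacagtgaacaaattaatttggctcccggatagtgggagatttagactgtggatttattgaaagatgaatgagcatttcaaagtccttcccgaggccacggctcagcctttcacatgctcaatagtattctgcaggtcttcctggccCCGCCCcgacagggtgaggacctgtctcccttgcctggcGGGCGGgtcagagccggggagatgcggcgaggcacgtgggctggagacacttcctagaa
Sema4g: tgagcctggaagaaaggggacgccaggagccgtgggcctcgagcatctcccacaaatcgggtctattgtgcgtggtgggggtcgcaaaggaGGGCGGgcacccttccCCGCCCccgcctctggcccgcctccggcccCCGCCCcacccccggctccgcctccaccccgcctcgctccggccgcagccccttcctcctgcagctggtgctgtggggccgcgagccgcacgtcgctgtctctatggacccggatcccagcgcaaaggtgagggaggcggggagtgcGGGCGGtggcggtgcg
Sema3c: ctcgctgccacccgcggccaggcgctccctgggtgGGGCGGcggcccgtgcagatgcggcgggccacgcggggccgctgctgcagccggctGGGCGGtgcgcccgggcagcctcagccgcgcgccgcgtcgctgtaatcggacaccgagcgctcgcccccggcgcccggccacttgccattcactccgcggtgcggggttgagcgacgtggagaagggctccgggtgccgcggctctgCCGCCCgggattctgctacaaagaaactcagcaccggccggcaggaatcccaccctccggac

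The windows held 2, 2, 4 and 3 GC boxes in that order, and their GC content was 64.7%, 50.7%, 73.3% and 75.7%. Sema3e and Sema3c differed in direction, and both lie on chromosome 5, which also holds Sema3a and Sema3d. RefSeq held 74 promoters for 58 of the 67 members. A GC box in either orientation was present in 53 of these 74 (71.6%), against 35.7% of 32851 promoters of the same length. The member promoters had a median of 18.5 CG dinucleotides and a median GC content of 64.2%, against 7 and 52.7% over all promoters, so GC box frequency and base composition moved together here. The E-box CACGTG, which reads the same on both strands, was in 6.76% of the member promoters and in 7.15% of all. TATAAA, on either strand, was in 2.7% and 13.6%. GTAAACA, the core that forkhead factors such as FOXO bind, was found on neither strand of a member promoter and in 3.65% of all promoters. Of the windows shown, the Sema3e window holds 1 CACGTG. A match in the letters is a description and no evidence of binding.

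Values are log2 probe set summaries, so 1 unit is a doubling. They compare a gene between groups, not one gene with another. Array medians lay between 3.66 and 3.80, and r within a group was 0.931 to 0.971 across probe sets. A narrow spread of values marked replicate 2 of GFP-positive basal cells and the control Sca1-positive luminal replicate 2, and replicate 2 of GFP-negative basal cells lay apart from its group on the first principal component. Without these 3 arrays, 30 genes varied by the F test that follows in place of 32, and the pairwise calls that change are given with each comparison. Control basal cells had all 8 basal markers higher and all 7 luminal markers lower than control luminal cells, as their gates are named. Ptprc, the gene of CD45, had group means of 3.36 to 3.66, at or below the array medians. The arrays measure pooled cells, so fewer cells of a type and less RNA per cell cannot be told apart. Precision is limited by the few arrays per group.

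Differences across the 7 groups were found for 32 of the 67 genes (47.8%) by limma's moderated F test at an adjusted p under 0.05, against 20.7% of all genes. The median range between the lowest and the highest group mean was 0.642 for these genes and 0.426 over all genes. By role, the ligands that varied were 11 of 20 semaphorins, 3 of 8 ephrins, all 3 Slits and 2 of 4 netrins. Among receptors, 6 of 9 plexins, 5 of 13 Eph receptors and 2 of 4 Robos varied, and neither a neuropilin nor an Unc5 receptor was called. The highest group mean of the 32 genes was in a basal group for 25: GFP-positive basal for 14, control basal for 7 and GFP-negative basal for 4. The lowest mean was in a luminal group for 27 of the 32. The same counts were not made over all genes, so no bias particular to guidance genes can be read from them. Every called gene reached above 3.80, the highest array median, in at least 1 group. The 20 genes whose group means all stayed below that level (among them Nrp1, Sema3a, Sema3d, Plxnc1, Robo3, Robo4, Unc5a, Unc5c and Unc5d) gave no call in this test, and whether they were expressed cannot be read from these values.

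**Figure D1:**
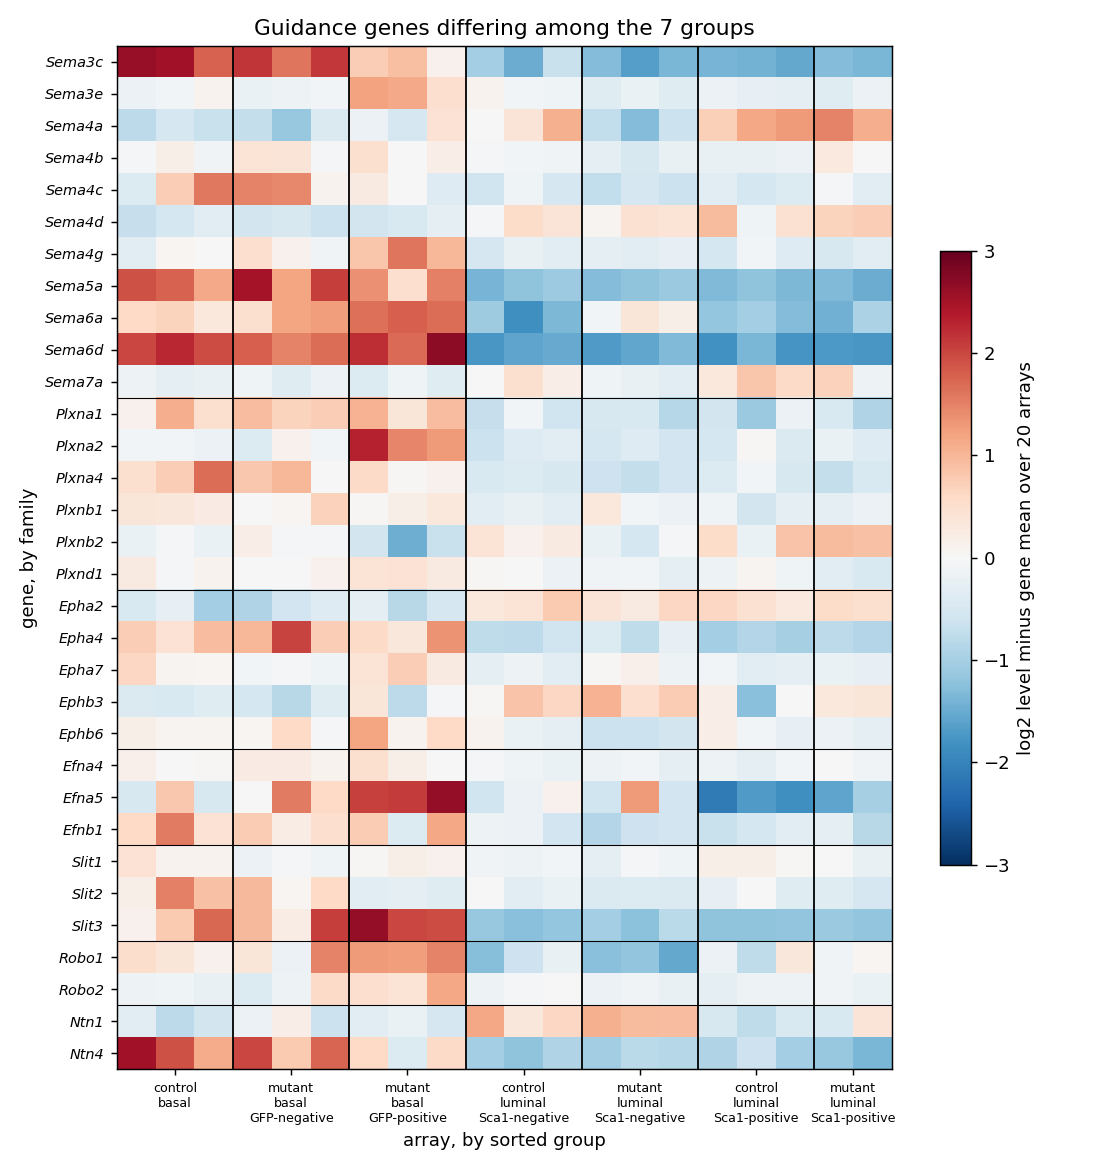
Each row is 1 of the 32 guidance genes, out of 67, that were called by the F test. Each column is 1 of the 20 arrays arranged by sorted group, and the colour is the log2 level minus that gene's mean over the arrays. Sema6d, Sema3c, Sema5a and Slit3 lie above their own mean in the 9 basal arrays and below it in the 11 luminal arrays.

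The first comparison asked where the genes are expressed in normal glands, by setting control basal cells against the mean of both control luminal subsets. Basal cells had higher levels of 16 guidance genes and lower levels of 4. The 20 called genes were 29.9% of the members, against 13.9% of all genes (6.82% higher and 7.07% lower). The median difference was 0.14 for the 67 genes and -0.0013 over all genes. Arrays of the groups did not overlap for 21 of the 67 genes, against 15.3% of all genes.

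Semaphorins gave the largest differences. Sema6d, a membrane semaphorin that binds plexin A receptors, read 7.17, 7.43 and 7.11 in control basal arrays, 3.43, 3.59 and 3.66 in Sca1-negative and 3.35, 3.80 and 3.40 in Sca1-positive luminal arrays. Every basal array lay more than 3 units above every luminal one. The difference was 3.70 (SE 0.17, adjusted p = 3.93e-10). The mutant groups kept to the same pattern, with 6.96, 6.66 and 6.84 in GFP-negative basal, 7.38, 6.87 and 7.85 in GFP-positive basal, 3.47, 3.61 and 3.85 in Sca1-negative luminal and 3.44 and 3.43 in Sca1-positive luminal arrays.

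Sema3c, a secreted semaphorin that binds neuropilins, read 7.86, 7.76 and 7.02 in control basal arrays. Its luminal values were 4.23, 3.76 and 4.57 in the Sca1-negative and 3.84, 3.83 and 3.70 in the Sca1-positive arrays of controls, so the gates did not overlap. The difference was 3.56 (SE 0.21, adjusted p = 1.01e-08). Sema5a, a membrane semaphorin with thrombospondin repeats, read 6.61, 6.46 and 5.84 in control basal arrays, 3.30, 3.49 and 3.61 in Sca1-negative and 3.37, 3.48 and 3.36 in Sca1-positive luminal arrays. Again no luminal array came near a basal one, and the difference was 2.87 (SE 0.26, adjusted p = 6.97e-07). Sema5a remained basal in the mutants, with 7.20, 5.88 and 6.78 in GFP-negative and 6.07, 5.19 and 6.22 in GFP-positive basal arrays against 3.41, 3.49 and 3.58 in Sca1-negative and 3.36 and 3.21 in Sca1-positive luminal arrays. Sema6a was the remaining semaphorin that was higher in basal cells, by 1.82 (SE 0.19, adjusted p = 3.80e-06).

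Semaphorins with the opposite pattern were Sema4a, Sema4d and Sema7a, all of them membrane-bound and best known from the immune system. Sema4a read 4.76, 5.04 and 4.88 in control basal arrays, 5.54, 5.93 and 6.60 in Sca1-negative and 6.27, 6.70 and 6.82 in Sca1-positive luminal arrays. All luminal arrays of controls lay above all basal ones, and the difference was -1.42 (SE 0.25, adjusted p = 0.000757). Sema4d, the ligand of plexin B1, was lower in basal cells by 0.89 (difference -0.89, SE 0.18, adjusted p = 0.00335), and Sema7a, a GPI-anchored semaphorin, by a difference of -0.62 (SE 0.16, adjusted p = 0.0163).

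Among secreted cues, 2 of 3 Slits and 1 of 4 netrins were called, all of them higher in basal cells. Slit3 read 5.53, 6.20 and 7.14 in control basal arrays and 4.15 to 4.27 in the 6 luminal arrays of controls. The basal arrays spread widely but none overlapped the luminal ones, and the difference was 2.08 (SE 0.34, adjusted p = 0.000389). Slit2 was higher by 1.04 (SE 0.22, adjusted p = 0.00409), from 3.59, 4.92 and 4.28 in basal arrays against 3.05 to 3.43 in luminal arrays. Ntn4, a netrin of basement membranes that binds laminin, read 8.24, 7.62 and 6.82 in control basal arrays, 4.70, 4.50 and 4.81 in Sca1-negative and 4.81, 5.09 and 4.70 in Sca1-positive luminal arrays. It differed by 2.79 (SE 0.30, adjusted p = 5.49e-06), or 6.91-fold. Ntn1 was not called, with means of 4.59 in control basal, 5.85 in control Sca1-negative and 4.57 in control Sca1-positive luminal cells.

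Receptors showed smaller differences. Epha4, an Eph receptor that binds ephrins of both classes, read 5.21, 4.91 and 5.41 in control basal arrays and 3.46 to 3.89 in the luminal arrays of controls. It was higher by 1.54 (SE 0.24, adjusted p = 0.000322), and remained high in the mutants' basal cells at 5.49, 6.51 and 5.23 (GFP-negative) and 5.05, 4.82 and 5.82 (GFP-positive) against 4.07, 3.72 and 4.24 in mutant Sca1-negative and 3.69 and 3.61 in mutant Sca1-positive luminal arrays. The plexins Plxna4 (1.35), Plxna1 (1.11) and Plxnb1 (0.63), the Eph receptors Ephb4 (0.83) and Epha7 (0.50), and neuropilin Nrp2 (0.45) were also higher in basal cells, with adjusted p between 0.000802 and 0.0422. Epha2, an Eph receptor common in epithelia, was the called receptor that was lower in basal cells. It read 7.34, 7.55 and 6.78 in control basal arrays and 8.08 to 8.59 in the 6 control luminal arrays, a difference of -1.06 (SE 0.17, adjusted p = 0.000406). The ephrins Efnb1 (1.26, adjusted p = 0.00754) and Efna3 (0.44, adjusted p = 0.0293) were higher in basal cells, the latter between group means that stayed below 3.80. No Robo or Unc5 receptor was called here, and the largest difference without a call was 1.05 for Sema4c (adjusted p = 0.0571).

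Of 61 measured genes listed as partners of these families, 18 were higher and 6 lower in control basal cells and 37 were not called. The list also holds genes named for a plexin domain, whose part in guidance signalling was not tested. The called share was 39.3%, against the 13.9% of all genes, and the median difference was 0.20. The partner list was chosen with earlier results of these data known. This share and the later partner shares are therefore descriptions and no independent evidence. Semaphorin and plexin partners gave 9 higher and 1 lower of 21, led by Plxdc2, a plexin domain protein (4.29), and by Dpysl2 (3.24) and Dpysl3 (3.17), the CRMP proteins that carry semaphorin signals to microtubules. The exception was Met (-1.94), the HGF receptor, which associates with B-class plexins. Netrin partners gave 3 higher and 1 lower of 10, among them Neo1, the netrin and RGM receptor neogenin (1.10), and Dscam (-1.15). Slit and Robo partners gave 2 higher and 2 lower of 14. Eph and ephrin partners gave 4 higher and 2 lower of 16, the lower ones including Adam10, a protease that cleaves ephrins (-1.44). Among markers of other cell types, 1 of 8 endothelial genes (Cdh5, 0.91) was higher, 1 of 7 fibroblast genes (Dcn, -3.41) was lower and 0 of 7 immune and 0 of 5 pericyte genes were called, with a summed endothelial level of 27.6 to 31.9 in control basal against 27.0 to 28.6 in control luminal arrays. Whether these cells contributed to any guidance gene was not tested.

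Without the 3 arrays that stand apart 23 genes were called, the added ones being Ephb3 (-0.72, adjusted p = 0.0135), Ntn1 (-0.67, 0.0494) and Plxnb2 (-0.63, 0.00246). Calls that ended when a single array was left out were those of Epha7 (adjusted p = 0.0981 without control basal replicate 1), Ephb4 (0.0541 without control basal replicate 1 and 0.128 without replicate 2), Efnb1 (0.0669 without control basal replicate 2) and Sema7a (0.0676 without control basal replicate 2 and 0.0529 without replicate 3). Efna3 ended without control basal replicate 3 (0.217), Sca1-negative luminal replicate 2 or 3 (0.0556 and 0.0517) or Sca1-positive luminal replicate 3 (0.0612), and Nrp2 without control basal replicate 2 or 3 (0.181 and 0.128), Sca1-negative luminal replicate 1 or 2 (0.0863 and 0.0569) or Sca1-positive luminal replicate 1 or 3 (0.084 and 0.0785).

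**Figure D2:**
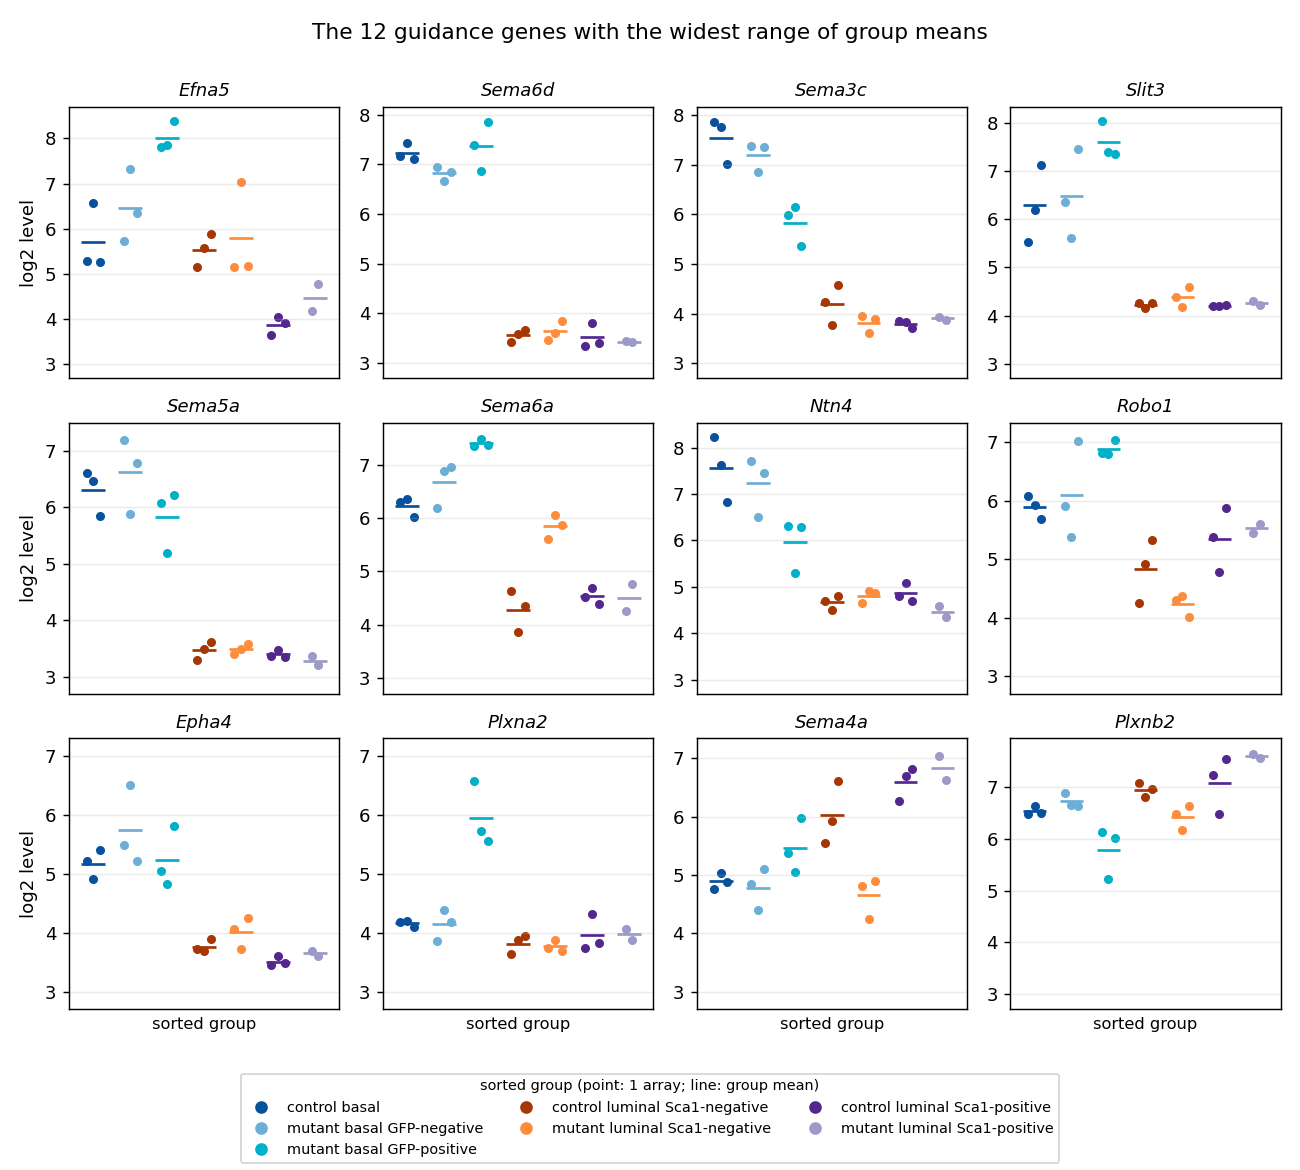
Log2 level in every array for the 12 guidance genes with the largest range of group means among those called by the F test, by sorted group, with a line at each group mean. Sema6d, Sema3c, Sema5a, Slit3, Ntn4 and Epha4 separate basal from luminal arrays, Plxna2 is raised in the GFP-positive basal arrays, and Sema4a and Plxnb2 have their highest means in Sca1-positive luminal cells of mutants.

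Within the luminal compartment of controls, the Sca1 gates were close. Ntn1, the classical netrin, was the called gene, 1 of 67 (1.49%) against 0.762% of all genes (0.577% lower), and arrays did not overlap for 8 genes, against 13.3% of all. It read 6.29, 5.49 and 5.76 in Sca1-negative and 4.65, 4.38 and 4.68 in Sca1-positive arrays. The gates did not overlap, and the difference of Sca1-positive minus Sca1-negative was -1.28 (SE 0.24, adjusted p = 0.0194). Basal cells were at the lower of these levels, with Ntn1 means of 4.59 in controls, 4.93 in GFP-negative and 4.80 in GFP-positive cells. In the mutants the Sca1-negative luminal arrays read 6.20, 6.10 and 6.06 and the Sca1-positive ones 4.69 and 5.51. The Ntn1 call ended with a fit on the compared groups only (0.11), without the 3 arrays that stand apart (0.0728), and without Sca1-positive replicate 1 (0.0505) or 2 (0.0803) or Sca1-negative replicate 1 (0.0879) or 3 (0.0557). Efna5 had the largest difference of all members, -1.67, from 5.16, 5.58 and 5.89 in Sca1-negative to 3.65, 4.05 and 3.91 in Sca1-positive arrays, but was not called (SE 0.49, adjusted p = 0.193). Of the partners, 2 of 61 (3.28%) were lower in Sca1-positive cells, Flrt3, a ligand of Unc5 receptors (-1.48, adjusted p = 0.0426), and Met (-1.36, adjusted p = 0.00163). Progenitor markers moved with them, 3 of 5 being lower in Sca1-positive cells (Kit, Aldh1a3 and Cd14), and their part was not tested.

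Mutant and control cells were compared first in the Sca1-negative luminal gate. Of the 67 genes, Sema6a rose and Sema4a fell, which is 2.99% against 1.9% of all genes (1.21% higher and 0.682% lower). Arrays did not overlap for 20 of the 67 genes, against 22.6% of all genes. Sema6a is a membrane semaphorin that binds Plxna2 and Plxna4. It read 4.63, 3.86 and 4.36 in control and 5.61, 6.07 and 5.87 in mutant arrays. The groups stood about a unit apart at their nearest, and the difference was 1.57 (SE 0.22, adjusted p = 0.000853), or 2.97-fold. The mutant mean of 5.85 lay between the control luminal mean of 4.28 and the control basal mean of 6.23. Sema4a, in contrast, read 5.54, 5.93 and 6.60 in control arrays and 4.81, 4.25 and 4.90 in mutant arrays. The groups did not overlap, and the difference was -1.37 (SE 0.29, adjusted p = 0.0184). The mutant mean of 4.65 was near that of control basal cells, 4.89.

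Of the 61 partner genes, 4 rose in this gate and 1 fell, 8.2% against the 1.9% of all genes. Plxdc2 rose by 1.95 (adjusted p = 0.00663), Srgap3, a Slit-Robo GTPase activating protein, by 1.58 (0.00168), Pdzrn3 by 1.21 (0.0336) and Farp2, a GTPase regulator bound to plexin A receptors, by 0.89 (0.0154), while Adam10 fell by 0.75 (0.00858). The largest differences without a call among the 67 genes were 0.80 for Efna1 (adjusted p = 0.546) and -0.74 for Sema3f (0.306, and 0.0247 in a fit of the compared groups only). Hormone-sensing markers moved in the same gate: 4 of 5 fell (Esr1, Pgr, Foxa1 and Tph1), and their summed level was 26.7 to 27.5 in mutant against 37.2 to 39.3 in control arrays, while in Sca1-positive cells it was 40.8 to 42.0 in controls and 41.0 to 41.9 in mutants. Of 8 basal markers 0 were called, with a summed level of 40.2 to 42.8 in mutant and 38.3 to 42.8 in control arrays. Of 7 luminal markers 0 were called. Of 5 progenitor markers 1 rose (Elf5, by 2.23). Of 4 genes on the Schwann and nerve list Sox10 rose by 1.29 and the others were not called (S100b -0.23, Mbp -0.30, Mag -0.03). Sox10 averaged 4.90 in control and 6.19 in mutant cells of this gate, and 6.27 in control basal cells. Of 7 fibroblast genes Dcn fell by 2.83. The part of all these markers in the Sema6a and Sema4a differences was not tested. The Sema6a call held in each alternative fit that was run. That of Sema4a ended with the compared groups only (adjusted p = 0.104), without mutant replicate 2 (0.095) and without control replicate 3 (0.0925).

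In Sca1-positive luminal cells no guidance gene was called between mutants and controls, with 4 at an unadjusted p under 0.05, and limma called 0.226% of all genes. Sema6a read 4.25 and 4.76 in mutant and 4.53, 4.68 and 4.40 in control arrays, a difference of -0.03 with a 95% confidence interval of -0.55 to 0.49. Sema4a read 7.04 and 6.63 in mutant and 6.27, 6.70 and 6.82 in control arrays, and these overlapped (difference 0.24, interval -0.44 to 0.91). The differences of the 67 genes ran from -0.41 for Ntn4 to 0.999 for Efna1 (adjusted p = 0.566), and 0 of 61 partners were called. Arrays did not overlap for 21 genes, against 28.6% of all. With 2 mutant arrays the intervals are wide. The test of whether the Sema6a effect differed between the luminal gates gave -1.60 (SE 0.32, adjusted p = 0.0845), which missed the threshold, and was 0.0443 with array weights and 0.0419 without control Sca1-negative replicate 1. The same test gave 1.61 for Sema4a (adjusted p = 0.248). Limma called 0 of the 67 genes in it, with 4 at an unadjusted p under 0.05, against 0.14% of all genes.

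Among the mutant groups, GFP-positive basal cells had the most called guidance genes. Against control basal cells 6 guidance genes were higher (Efna5, Plxna2, Sema4g, Sema6a, Sema3e and Robo2) and 3 lower (Slit2, Ntn4 and Sema3c). This is 13.4% of the members, against 4.23% of all genes (2.32% higher and 1.91% lower). The median difference was -0.0061 for the 67 genes and -0.0324 over all genes, and 24 genes had arrays that did not overlap, against 18.6% of all genes.

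Among receptors, Plxna2, a plexin that binds Sema6a and, with neuropilins, class 3 semaphorins, read 4.18, 4.20 and 4.10 in control basal arrays, 3.85, 4.39 and 4.18 in GFP-negative and 6.58, 5.73 and 5.55 in GFP-positive basal arrays. All 3 GFP-positive arrays lay above every other array, since the luminal arrays read 3.64, 3.88 and 3.94 (control Sca1-negative), 3.75, 4.31 and 3.83 (control Sca1-positive), 3.74, 3.88 and 3.69 (mutant Sca1-negative) and 4.07 and 3.88 (mutant Sca1-positive). GFP-positive basal cells exceeded control basal cells by 1.80 (SE 0.22, adjusted p = 0.000109), or 3.47-fold. Robo2, a Slit receptor, read 4.22, 4.10 and 4.87 in GFP-positive against 3.56, 3.57 and 3.49 in control basal arrays, a difference of 0.86 (SE 0.20, adjusted p = 0.0249). GFP-negative basal arrays read 3.29, 3.56 and 4.27 for Robo2, the last within the GFP-positive values. It was not called between the GFP fractions, except without GFP-negative replicate 3 (0.97, adjusted p = 0.00443).

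Among membrane-bound ligands, Sema6a read 7.36, 7.50 and 7.38 in GFP-positive arrays, 6.30, 6.37 and 6.03 in control and 6.19, 6.89 and 6.96 in GFP-negative basal arrays. The GFP-positive arrays lay within a narrow band above both other groups, and the difference from controls was 1.18 (SE 0.22, adjusted p = 0.00459). Sema4g rose from 3.64, 4.05 and 3.98 in control to 4.82, 5.59 and 4.98 in GFP-positive basal arrays, by 1.24 (SE 0.19, adjusted p = 0.000991). Efna5, a GPI-anchored ephrin, read 5.28, 6.57 and 5.27 in control, 5.73, 7.32 and 6.35 in GFP-negative and 7.81, 7.85 and 8.39 in GFP-positive basal arrays. The GFP-positive arrays were again the highest of all 20, and the difference from controls was 2.31 (SE 0.49, adjusted p = 0.0121), or 4.95-fold. In mutant luminal cells Efna5 read 5.16, 7.05 and 5.17 (Sca1-negative) and 4.18 and 4.77 (Sca1-positive), so 1 Sca1-negative array stood above the rest of its group.

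Secreted cues moved in both directions. Sema3e, the class 3 semaphorin that binds Plxnd1 without a neuropilin, read 3.20, 3.31 and 3.49 in control and 4.59, 4.52 and 3.88 in GFP-positive basal arrays. Only the GFP-positive arrays exceeded 3.80, the highest array median, and the difference was 0.99 (SE 0.15, adjusted p = 0.000662). Sema3c fell from the control values given above to 5.98, 6.14 and 5.36, by 1.72 on the log2 scale (SE 0.25, adjusted p = 0.000557), or 3.29-fold. GFP-negative basal arrays read 7.38, 6.86 and 7.36. The GFP-positive arrays still lay above the mutant luminal arrays, which read 3.94, 3.60 and 3.88 (Sca1-negative) and 3.94 and 3.87 (Sca1-positive).

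Ntn4 fell to 6.32, 5.31 and 6.28 in GFP-positive cells, by 1.59 (SE 0.34, adjusted p = 0.0133). In GFP-negative basal cells it read 7.72, 6.51 and 7.46, and in mutant luminal cells 4.66, 4.90 and 4.86 (Sca1-negative) and 4.58 and 4.34 (Sca1-positive). Slit2 read 3.06, 3.12 and 3.05 in GFP-positive cells, within the 2.90 to 3.43 of the luminal arrays, and fell by 1.19 (SE 0.26, adjusted p = 0.0135). Slit3 read 8.04, 7.40 and 7.36 in GFP-positive and 6.37, 5.62 and 7.47 in GFP-negative basal arrays. Its difference from controls was 1.31 without a call (SE 0.38, adjusted p = 0.0764, and 0.0187 without control basal replicate 3). Between the GFP fractions Slit3 was called only without GFP-negative replicate 3 (1.61, adjusted p = 0.0183). Mutant luminal arrays read 4.40, 4.18 and 4.60 (Sca1-negative) and 4.29 and 4.21 (Sca1-positive) for Slit3.

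Partner genes gave 8 higher and 2 lower of 61 in this comparison, 16.4% against the 4.23% of all genes. Flrt3 rose by 2.65 (adjusted p = 9.62e-05), from a group mean of 5.26 to 7.91, followed by Sdc1, a heparan sulphate proteoglycan (1.60), Enah, an actin regulator (1.35), Tiam1, a Rac activator (1.30), Srgap3 (1.06), Rgmb, a neogenin ligand (1.04), Itsn1 (0.70) and Grip1 (0.44). Dpysl2 fell by 2.48 (adjusted p = 0.00364), from 6.60 to 4.12, and Rnd1, a GTPase that binds plexins, fell by 1.64 (adjusted p = 0.00839). Other lists moved in these arrays. The summed level of 7 luminal markers was 60.0 to 65.1 in GFP-positive and 55.1 to 59.9 in control basal arrays, against 73.3 to 74.1 in the luminal arrays of controls, with 3 of 7 called higher (Krt18, Krt19 and Cldn7). The 8 basal markers summed to 72.6 to 76.5 and 76.7 to 77.7, with 2 called lower (Myh11 and Oxtr), against 35.2 to 42.8 in control luminal arrays. The 5 progenitor markers summed to 30.4 to 34.4 and 25.2 to 26.9, with 2 called higher (Elf5 and Cd14). Of 7 fibroblast markers Dcn and Col1a2 were higher while Lum and Dpt had means under 3.05 in both groups, 1 of 5 pericyte markers was higher (Cspg4), and 1 of 8 endothelial markers (Cdh5) and 1 of 4 Schwann genes (S100b) were lower. The part of these cells in the guidance gene differences was not tested.

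Without the 3 arrays that stand apart 11 genes were called, Ephb6 (0.79, adjusted p = 0.0221) and Nrp2 (-0.59, 0.0166) being added. A fit of the compared groups only kept Plxna2 and Sema6a of the 9 calls and called 3 genes in all, the last being Robo1. Adjusted p in that fit was 0.0531 for Efna5, 0.0595 for Sema3c, 0.0714 for Sema4g, 0.106 for Sema3e, 0.151 for Robo2 and 0.189 for Slit2 and for Ntn4. Of single arrays, calls ended without GFP-positive replicate 3 (Robo2, adjusted p = 0.107, and Efna5, 0.0534), GFP-positive replicate 2 (Ntn4, 0.064), control basal replicate 1 (Robo2, 0.0595, Efna5, 0.0513, and Ntn4, 0.0612), control basal replicate 2 (Robo2, 0.0567) and control basal replicate 3 (Robo2, 0.0759, and Efna5, 0.0551).

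GFP-negative basal cells of the same mutants gave no called guidance gene against control basal cells, with 5 at an unadjusted p under 0.05, and limma called 0.161% of all genes. The differences ran from -0.42 for Sema6d (adjusted p = 0.515) to 0.76 for Efna5 (adjusted p = 0.675). For Plxna2 the difference was -0.02 with an interval of -0.48 to 0.45, which lies below the 1.80 of the GFP-positive cells. For Sema3e it was -0.09 (interval -0.40 to 0.22), and for Sema3c -0.35 (interval -0.87 to 0.18). Arrays did not overlap for 8 of the 67 genes, against 13.7% of all genes, and 0 of 61 partners were called.

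Within the mutants' basal gate, GFP-positive cells had 4 guidance genes higher and 2 lower than GFP-negative cells, 8.96% of the members against 3.25% of all genes (2.05% higher and 1.2% lower). Arrays did not overlap for 15 genes, against 15% of all genes. This comparison shares its GFP-positive arrays with the comparison above. Plxna2 was higher by 1.81 (SE 0.22, adjusted p = 0.000116), Sema3e by 1.09 (SE 0.15, adjusted p = 0.000353) and Sema4g by 0.96 (SE 0.19, adjusted p = 0.00932). The GFP-negative arrays read 3.18, 3.24 and 3.31 for Sema3e and 4.50, 4.12 and 3.89 for Sema4g, all below the GFP-positive arrays. Sema3c was lower by a difference of -1.37 (SE 0.25, adjusted p = 0.00473). The other genes called against control basal cells were not called between the fractions, namely Efna5 (1.55, adjusted p = 0.122), Ntn4 (-1.26, 0.0613), Sema6a, Slit2 and Robo2. Slit2 was called without GFP-negative replicate 2 (-1.12, adjusted p = 0.0288).

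Epha7, an ephrin A receptor, read 3.89, 4.22 and 3.75 in GFP-positive and 3.40, 3.43 and 3.35 in GFP-negative arrays, a difference of 0.56 (SE 0.14, adjusted p = 0.0454), while control basal arrays read 4.10, 3.57 and 3.56. Plxnb2, a widely expressed plexin that binds class 4 semaphorins, read 6.13, 5.22 and 6.03 in GFP-positive and 6.90, 6.65 and 6.65 in GFP-negative arrays, a difference of -0.94 (SE 0.24, adjusted p = 0.0478). Its other arrays read 6.49, 6.64 and 6.50 (control basal), 7.09, 6.81 and 6.96 (control Sca1-negative), 7.24, 6.48 and 7.55 (control Sca1-positive), 6.49, 6.17 and 6.64 (mutant Sca1-negative) and 7.65 and 7.57 (mutant Sca1-positive), so GFP-positive basal cells held the lowest mean. Robo1, a Slit receptor among the genes with the widest range, read 6.82, 6.79 and 7.03 in GFP-positive, 5.91, 5.37 and 7.03 in GFP-negative and 6.08, 5.92 and 5.68 in control basal arrays. It was called neither against GFP-negative cells (0.78, adjusted p = 0.345) nor against controls (0.99, adjusted p = 0.152). Without GFP-negative replicate 3 it was called higher in GFP-positive than in GFP-negative cells (1.24, adjusted p = 0.0411). In luminal arrays Robo1 read 4.26, 4.92 and 5.33 (control Sca1-negative), 5.37, 4.78 and 5.88 (control Sca1-positive), 4.30, 4.37 and 4.01 (mutant Sca1-negative) and 5.45 and 5.60 (mutant Sca1-positive).

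Of the 61 partners, 5 were higher and 2 lower in GFP-positive than in GFP-negative cells, 11.5% against the 3.25% of all genes: Flrt3 (2.05), Tiam1 (1.34), Enah (1.09), Itsn1 (0.59) and Grip1 (0.39) were higher, and Dpysl2 (-2.70) and Mical2 (-0.96), an actin oxidase of the MICAL family, were lower. Luminal markers summed to 55.3 to 58.5 in GFP-negative against 60.0 to 65.1 in GFP-positive arrays, with 2 of 7 called (Krt18 and Cldn7). Progenitor markers summed to 26.0 to 28.4 and 30.4 to 34.4, with 1 of 5 higher (Elf5), and fibroblast markers to 30.0 to 30.3 and 32.6 to 34.1, with 2 of 7 higher (Dcn and Col1a2). Basal markers summed to 75.0 to 77.3 and 72.6 to 76.5, with 1 of 8 lower (Myh11). The part of these markers' cells was not tested. A fit of the compared groups only ended all 6 calls, with adjusted p of 0.0786 for Plxna2, 0.103 for Sema3c, 0.108 for Sema3e, 0.225 for Epha7, 0.231 for Sema4g and 0.254 for Plxnb2. Epha7 also ended without GFP-positive replicate 1 (0.0877) or 2 (0.174) or any 1 GFP-negative array (0.0829 to 0.113), and Plxnb2 without GFP-positive replicate 2 (0.185) or 3 (0.0618) or any 1 GFP-negative array (0.0835 to 0.148). Both also ended with array weights (0.0913 and 0.0771), and Plxnb2 with a variance trend and robust prior (0.063). Without the 3 arrays that stand apart the Sema4g (0.0615) and Epha7 (0.224) calls ended, and Ephb6 (0.89, adjusted p = 0.0233), Ntn4 (-1.29, 0.0492) and Sema6d (0.72, 0.0344) were called, 7 genes in all.

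**Figure D3:**
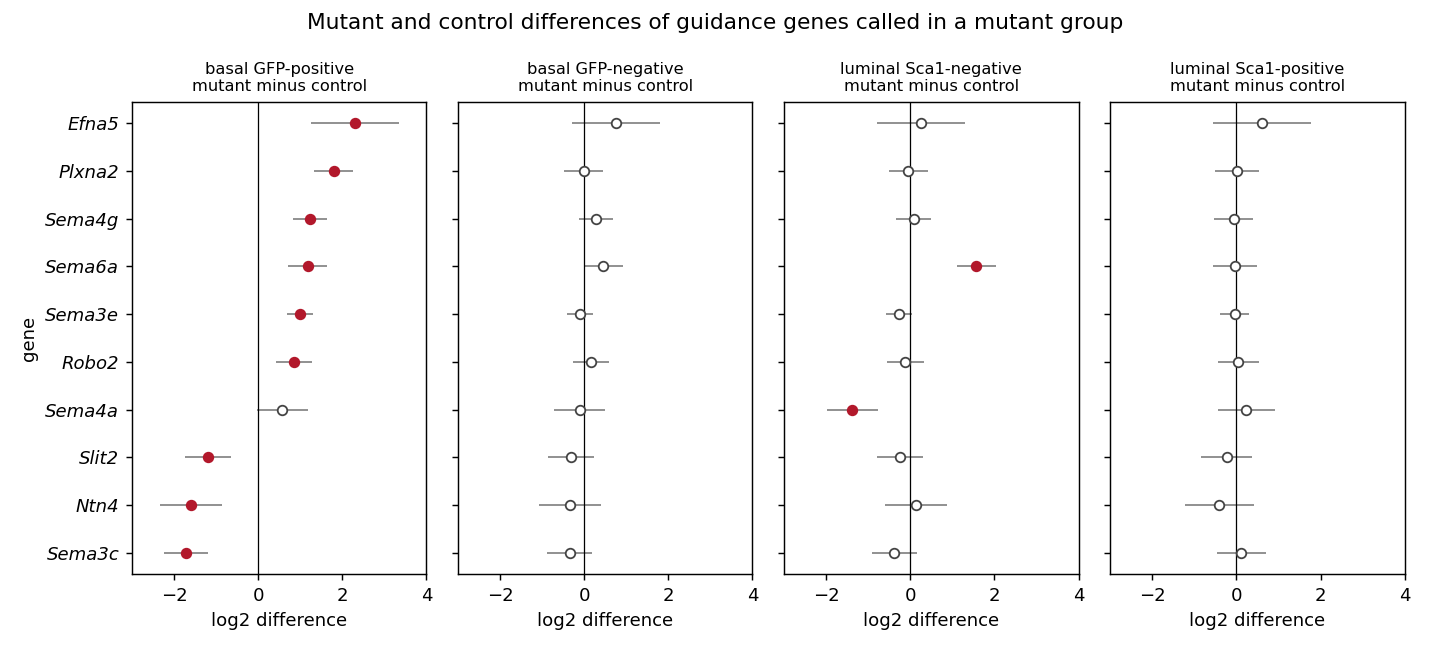
Mutant minus control log2 difference (point) with its 95% confidence interval (bar) in 4 panels, 1 for each mutant group, for the 10 guidance genes called in at least 1 of them. Filled red points passed the test and open points did not. GFP-positive basal cells hold 9 of the filled points, Sca1-negative luminal cells those of Sema6a and Sema4a, and the other panels none.

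Effects in the basal and luminal gates were compared directly by interaction tests, in which the mutant minus control difference of 1 gate is subtracted from that of another. Against the Sca1-negative luminal effect, the GFP-positive basal effect was higher for 4 of the 67 genes (5.97%, against 1.55% of all genes and 0.938% in this direction). These were Sema4a (1.95, SE 0.40, adjusted p = 0.021), Plxna2 (1.84, SE 0.31, adjusted p = 0.0046), Sema3e (1.26, SE 0.21, adjusted p = 0.00383) and Sema4g (1.16, SE 0.27, adjusted p = 0.0405). For Sema4a the basal effect was 0.58 (adjusted p = 0.347) and the luminal effect the fall given above, and its basal arrays read 5.38, 5.04 and 5.98 in GFP-positive and 4.84, 4.41 and 5.11 in GFP-negative cells. Sema6a rose in both gates, and the difference between its effects was -0.39 (interval -1.04 to 0.27, adjusted p = 0.818).

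Against the Sca1-positive luminal effect, 4 genes differed as well, 5.97% against 1.09% of all genes (0.582% higher and 0.512% lower). Plxna2 (1.78, SE 0.33, adjusted p = 0.0132), Sema4g (1.31, SE 0.29, adjusted p = 0.0363) and Sema3e (1.04, SE 0.22, adjusted p = 0.0307) had the higher effect in basal cells, and Sema3c the lower (-1.83, SE 0.37, adjusted p = 0.0231). Both sets of interactions share the basal arrays. A fit of the compared groups only ended all 4 calls (adjusted p 0.0687 to 0.171), and without the 3 arrays that stand apart those of Sema3e (0.13) and Sema4g (0.123) ended, the latter also with quantile normalization (0.0706). Without mutant Sca1-positive replicate 3 none of these 4 calls held, with adjusted p of 0.0863 for Plxna2, 0.113 for Sema4g, 0.0835 for Sema3e and 0.101 for Sema3c. Leaving out another single array ended the Sema3c call for control basal replicate 1 or 2, mutant Sca1-positive replicate 1 and control Sca1-positive replicate 2 or 3 (0.0501 to 0.0965), the Sema4g call for GFP-positive replicate 2, control basal replicate 1 or 3, mutant Sca1-positive replicate 1 and control Sca1-positive replicate 2 or 3 (0.0521 to 0.156), and the Sema3e call for GFP-positive replicate 1 or 2, control basal replicate 1 or 2, mutant Sca1-positive replicate 1 and each control Sca1-positive array (0.0542 to 0.15). In the comparison with the Sca1-negative gate the Plxna2 and Sema3e calls held in each alternative fit run. There a fit of the compared groups only ended the Sema4a (0.0531) and Sema4g (0.0616) calls, quantile normalization that of Sema4g (0.0671), and leaving out the 3 arrays that stand apart ended Sema4g (0.0609) and added Ephb6 (1.27, adjusted p = 0.0139). Of single arrays, the Sema4a call ended without GFP-positive replicate 3 (0.0515), mutant replicate 2 (0.06) or control luminal replicate 3 (0.0512), and that of Sema4g ended without any 1 of the 12 arrays other than GFP-positive replicate 1 and control basal replicate 2 (0.0525 to 0.106).

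Ligands and receptors that are known to bind each other were set side by side, each gene within its own scale. Slit2 and Slit3 were both higher in control basal than in luminal cells, whereas their receptors Robo1 (0.80, adjusted p = 0.105) and Robo2 (-0.04, adjusted p = 0.945) were not called. In GFP-positive basal cells Slit2 fell and Robo2 rose against controls. Ntn1 differed between the luminal gates, while Unc5b, a netrin receptor, had group means of 4.15 to 4.76 and no call in a comparison, though without control basal replicate 1 it was called higher in control basal than in luminal cells (0.49, adjusted p = 0.00886). Of ephrin B2 and its receptor EphB4, Ephb4 was called higher in control basal cells, and Efnb2 (0.53, interval -0.36 to 1.41) was not called. Whether these genes differ in pattern was not tested. Efna1, the main ligand of EphA2, averaged 6.39 in control basal, 7.12 in both control luminal gates, 7.92 in mutant Sca1-negative and 8.12 in mutant Sca1-positive cells, and was not called by the F test (adjusted p = 0.0641), while Epha2 was higher in all luminal groups.

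Among semaphorins, Sema3c and its receptors Nrp2 and Plxna1 were all higher in control basal cells, and of these Sema3c fell in GFP-positive basal cells. Nrp2 differed there by -0.51 (adjusted p = 0.101, and called without the 3 arrays that stand apart, as given above) and Plxna1 by 0.21 (adjusted p = 0.794, interval -0.37 to 0.78). Nrp1 and Sema3a had group means of 3.06 to 3.30 and 3.29 to 3.36, below the array medians. In controls Sema4d was higher in luminal cells and its receptor Plxnb1 in basal cells, and neither was called in a mutant comparison. Plxnb1 averaged 5.52 in control basal, 4.91 in control Sca1-negative and 4.89 in control Sca1-positive luminal cells. Sema3e rose in GFP-positive basal cells, where its receptor Plxnd1 differed by 0.26 (adjusted p = 0.173), with group means of 3.38 to 4.16. Sema7a was higher in luminal cells of controls, and Plxnc1, its plexin, had group means of 3.20 to 3.47.

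**Figure D4:**
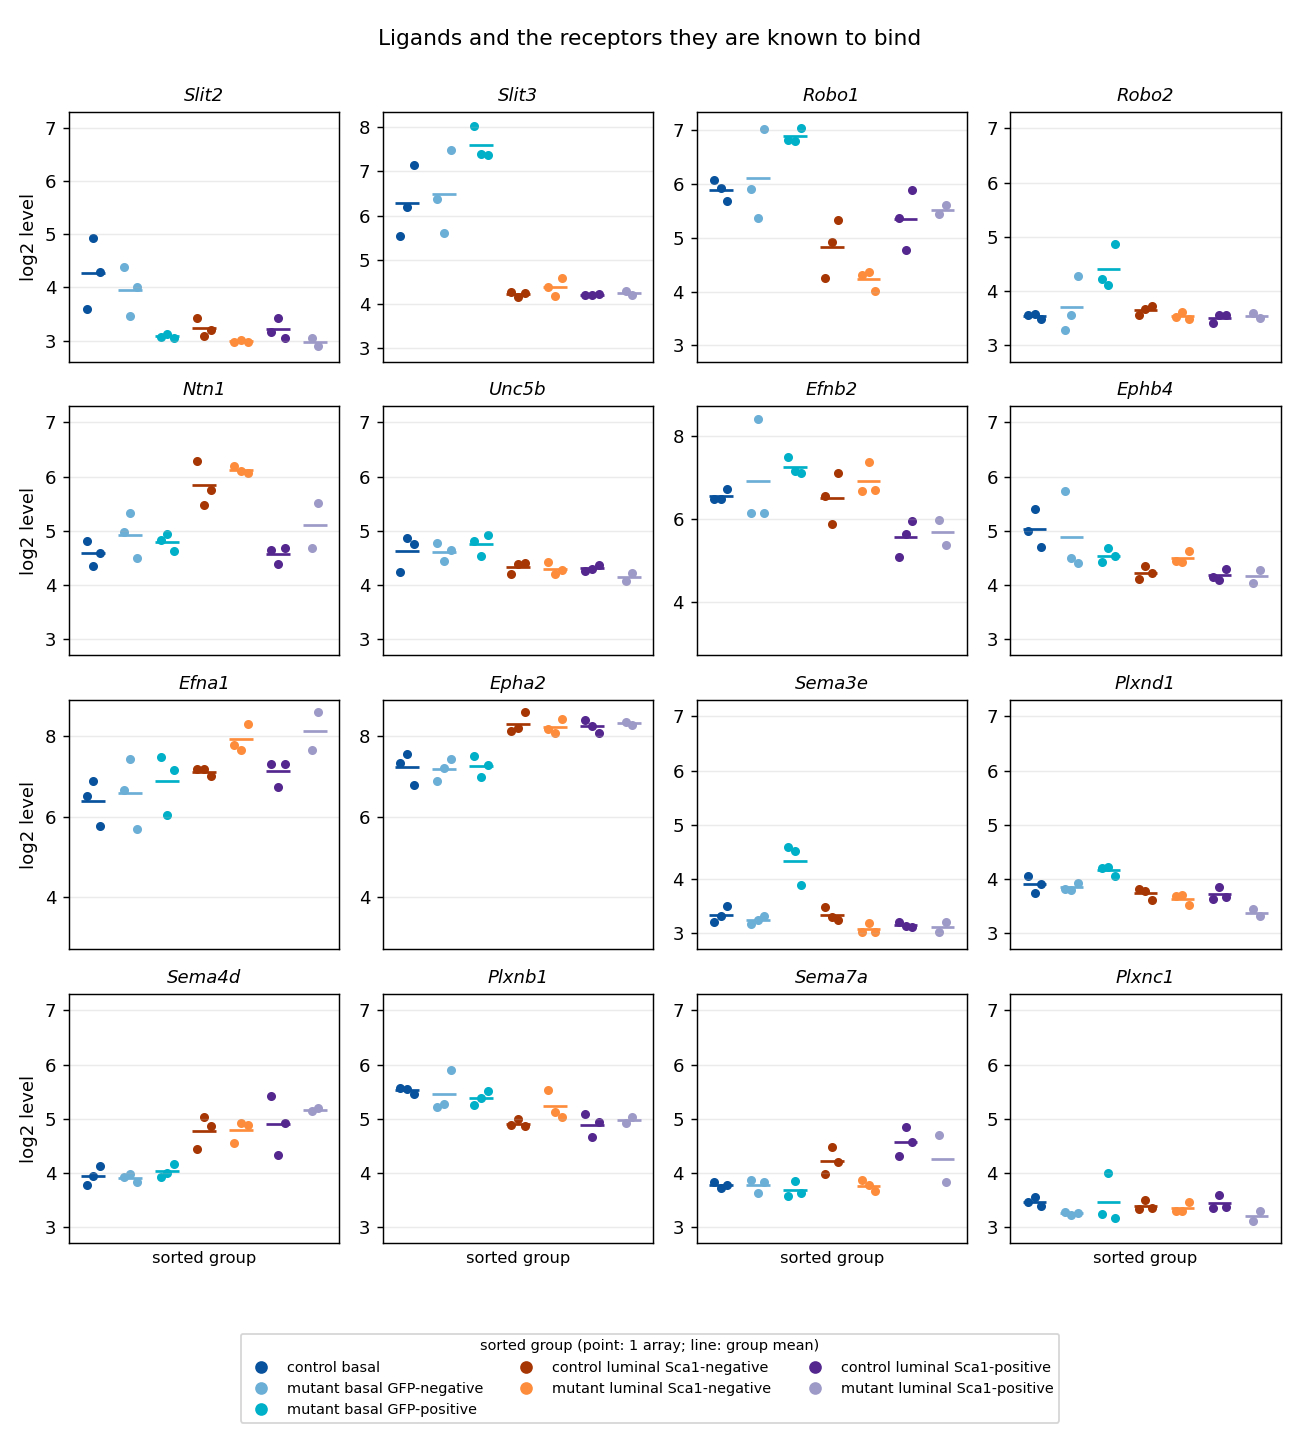
Log2 level in every array (points) and group mean (line) for 16 ligand and receptor genes across the 7 sorted groups, each gene on its own scale. Slit3 is higher in all basal groups than in luminal groups, Slit2 has its highest means in control and GFP-negative basal cells, Epha2 is higher in the luminal groups, Ntn1 is highest in the Sca1-negative luminal groups, and Sema3e is raised in GFP-positive basal cells.

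Some genes varied by the F test without a call in any of the 10 contrasts, namely Robo1, Plxnd1, Ephb3, Ephb6, Sema4b, Sema4c, Efna4 and Slit1. Ephb3 was highest in the Sca1-negative luminal gate of mutants (mean 7.25) and controls (6.98) and lowest in GFP-negative basal cells (5.90), with an adjusted F test p of 0.0367. Sema4c, a membrane semaphorin, had means of 5.72, 6.10 and 5.06 in control, GFP-negative and GFP-positive basal cells and 4.46 to 4.88 in the luminal groups (adjusted p = 0.0401). Ephb6, a receptor without kinase activity, ran from 3.56 in mutant Sca1-negative luminal to 4.81 in GFP-positive basal cells (adjusted p = 0.0125). Sema4b, Efna4 and Slit1 had narrow ranges of 0.57, 0.38 and 0.36 between their lowest and highest group means. Conversely, Ephb4, Nrp2 and Efna3 were called between control basal and luminal cells but not by the F test. Of the 67 genes, 27 were called in at least 1 of the 10 contrasts.

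Probe set choice touched 4 of the 67 genes. Epha10, Ephb1, Sema4d and Unc5d had a further probe set, which correlated with the one used at r of 0.486, 0.514, 0.533 and -0.053 over the 20 arrays. The levels of these genes are the least certain. With the mean of a gene's probe sets, Ephb1 was called higher in control basal than in luminal cells (0.60, adjusted p = 0.0406).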

How the data were processed

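The 20 arrays each hold amplified RNA of 2000 sorted cells, per the labels' protocols. The authors' deposited values are log2 probe set summaries, 1 column per array and 0 columns unmapped. The affy package is named in the submitters' processing notes, and its role, the normalization, filters and genome build are not given in the sources used here. The deposited values were used without further normalization.

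Of 34760 probe sets, 21640 had a single symbol in the platform table, 1321 had several and 11799 none here. For each of the 19937 genes the single-symbol probe set with the highest mean over the 20 arrays was used. Symbols were compared with RefSeq (GRCm38.p6), where 21553 of these probe sets were found by gene number with 0 symbols changed. No filter was set on level.

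One model with 7 group means was fitted (limma 3.58.1 under R 4.3.3, lmFit and eBayes, 13 residual degrees of freedom), with Benjamini-Hochberg adjustment over all genes within each contrast and a call at adjusted p under 0.05. Rose, fell, higher and lower name such calls. The p-values measure the spread between sorted samples, and whether replicates share mice across gates is not stated. The code was tested on simulated data. Figures were drawn with matplotlib 3.10.9.

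Members were all genes of the named families, and each called member is named, up to 25 per comparison. Ligand-receptor pairs were described whether called or not, and values in every array were given for the 12 called members with the widest range. Called partner genes (netrin and DCC, semaphorin and plexin, Slit and Robo, Eph and ephrin) were named between control luminal gates and in the mutant comparisons. For control basal against luminal cells only some of the 24 called were named, and those called in interaction tests were not. Marker lists covered basal, luminal, progenitor, hormone-sensing, endothelial, fibroblast, pericyte, immune, Schwann and adipocyte cells. The adipocyte list gave 0 calls of 5 in each group comparison, and of 4 Schwann genes Sox10 and S100b were higher and Mbp lower in control basal cells. Members and lists were chosen with earlier results of these data known. Alternatives were a fit of the compared groups only, quantile normalization, array weights, a replicate block, a filter at the median gene, a variance trend with a robust prior, the mean of a gene's probe sets and leaving out arrays.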

Additional observations from a re-analysis of the deposited data

Results flagged for a closer look

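Differences between gates in the mutant minus control difference, called the effect here, passed limma's interaction test for 8 combinations of gene and gate. In each gate GFP-positive mutant cells were set against GFP-negative control cells. The mutation and the choice of cells in which Cre had been active are therefore not separated. Between GFP-positive basal and Sca1-negative luminal cells, the effects differed by 1.84 for Plxna2 (basal effect 1.80, luminal effect -0.05), by 1.26 for Sema3e (0.99 and -0.27), by 1.95 for Sema4a (0.58 and -1.37) and by 1.16 for Sema4g (1.24 and 0.08). Between GFP-positive basal and Sca1-positive luminal cells they differed by 1.78 for Plxna2 (1.80 and 0.01), by 1.04 for Sema3e (0.99 and -0.04), by 1.31 for Sema4g (1.24 and -0.07) and by -1.83 for Sema3c (-1.72 and 0.12). The Sema4g and Sema3e calls against the Sca1-positive gate and the Sema4g call against the Sca1-negative gate ended in many of the alternative fits, 10 of 19, 12 of 18 and 13 of 20. Both sets share the same basal arrays, so these 8 values are not independent.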

How the results depend on the processing

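No named call reversed its direction in an alternative fit, and 19 of 46 calls held in each one run. A fit of the compared groups only kept 24 of 46 and gave 0 called genes between the control luminal gates, 3 for GFP-positive against control basal cells, 0 for GFP-positive against GFP-negative basal cells and 0 for the interaction of basal and Sca1-positive effects. It estimates the spread from fewer arrays. Leaving out the 3 arrays that stand apart, an alternative chosen after seeing the data, gave 0 between the control luminal gates and 2 for that interaction, and array weights gave 1 for the interaction between luminal gates. The cause was not tested. Leaving out 1 array gave 26 to 35 genes by the F test, 16 to 21 for control basal against luminal cells, 0 to 1 between the control luminal gates, 1 to 2 for the mutant effect in Sca1-negative and always 0 in Sca1-positive luminal cells, 7 to 9, always 0 and 4 to 8 for the basal comparisons in the order of the report, and 0 to 1, 2 to 5 and 0 to 4 for the interactions, where the last fell to 0 without mutant Sca1-positive replicate 3. The replicate numbers were not taken to pair the arrays in the main fit, since the sources do not state what they mark. Correlations of the 57 same-number pairs ran from -0.054 to 0.222 (median 0.019, 5 over 0.1). The 114 different-number pairs ran from -0.136 to 0.082 (median -0.009, 0 over 0.1). Of 20 arrays, 15 were closest to their own number, a hint from the data of some sharing that the main fit does not model. With the replicate block the counts were 32, 20, 1, 2, 0, 11, 0, 7, 0, 4 and 3 in the same order. The block added Nrp2 (-0.51, adjusted p = 0.0405) and Plxnb2 (-0.75, 0.0465) in GFP-positive against control basal cells and Efna5 (1.55, 0.0363) between GFP fractions, and ended the Sema3e call in the last interaction (1.02, 0.0609). Over all genes, the compared groups only gave 276 calls against 843 for GFP-positive against control basal cells, 134 against 648 for the GFP fractions, 43 against 152 between control luminal gates, 12 against 45 for the Sca1-positive and 0 against 32 for the GFP-negative basal comparison, and 124 against 218 for the last interaction, while array weights gave 819 against 378 for Sca1-negative, 75 for Sca1-positive, 231 between control luminal gates, 10 for GFP-negative basal cells and 72 against 28 for the first interaction.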
